A study of Mus musculus with 4 samples.

Results

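Lysosomal hydrolases and membrane proteins were followed in the livers of fasted mice that lack Cpt1a, the carnitine palmitoyltransferase of the outer mitochondrial membrane that commits long-chain fatty acids to oxidation. The 31 genes were taken by symbol from a list that was drawn up with earlier results of these data known, and all 31 were found among the 54532 genes of the count table. They code for 7 cathepsins and other peptidases, 10 glycosidases and sulfatases, 3 proteins of sphingolipid breakdown, 2 structural membrane proteins, 3 proteins of sorting and lipid transport, 4 proton pump subunits, 1 ion channel and 1 transcription factor. The series holds 1 group, 4 libraries of whole liver from mice with a liver-specific Cpt1a knockout after a 24 h fast, called livers 1 to 4. The authors' deposited tables set this group against a Cpt2 group and against a reference group, and the Cpt2 group against the reference group. Per the design text all these mice were fasted alike, and the controls were littermates. Whether the reference group is these littermate controls is not stated. The abbreviation of the reference group combines Rab30 with Cpt2, and its meaning is not given in the sources used here. Per the file headers, the group names of the deposited tables join both Cpt1a and Cpt2 with AlbCre, a Cre recombinase under the albumin promoter, which is active in hepatocytes and not aimed at other liver cells. Strain, age and sex are left unstated, nor is it said whether the groups were sequenced together, so genotype and batch cannot be told apart.

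The lysosome is the acid compartment in which proteins, glycans, lipids and glycogen delivered by endocytosis and autophagy are taken apart, and in the liver autophagy is a known source of amino acids and fatty acids during fasting. Its lumen is acidified by the vacuolar proton pump, most of its enzymes arrive with a mannose 6-phosphate tag, and its membrane is lined by heavily glycosylated LAMP proteins. Many lysosomal genes share a promoter element bound by the transcription factor TFEB, which mTORC1 holds in the cytoplasm of fed cells.

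With the reference group for comparison, Cpt1a knockout livers had lower transcript of 7 of the 31 genes and higher transcript of none, by the authors' adjusted p below 0.05, where 7.6% of all genes tested were lower and 6.81% higher. The lower genes were the proteases Ctsl, Ctsd and Ctsa, the glycosidases Gusb, Naglu and Hexa, and the acid sphingomyelinase Smpd1. The authors' deposited table gave Ctsl a 4.29-fold lower level and the other 6 genes 1.40-fold to 2.07-fold lower levels. Set against the Cpt2 group, 15 of the 31 genes were lower and 1, Ctsh, was higher, where 14.6% of all genes tested were lower and 14.2% higher.

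Cpt1a itself was still read at 24.4, 28.6, 31.1 and 36.9 FPKM in livers 1 to 4, where FPKM is the number of fragments scaled by gene length and sequencing depth. The authors' deposited tables put it 6.91-fold lower than in the reference group and 11.5-fold lower than in the Cpt2 group (adjusted p of 5.27e-51 and 7.11e-82). Cpt2 had a log2 fold change of −0.07 in the Cpt2 group over the reference group in the authors' deposited table (adjusted p = 0.837), so this transcript did not mark that group. The 4 libraries held 13138884 to 14116441 counts over 19732 to 20258 genes. The lysosomal genes had 35 to 13182 counts per gene and liver, with the fewest for Gla at 49, 44, 35 and 38 counts in livers 1 to 4.

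The promoters of these genes were searched for the E-box CACGTG and for the longer forms TCACGTG and TCACGTGA, the last being close to the element that TFEB binds. Both strands were searched, the first and last forms read the same on both strands, and each longer form contains the shorter ones. RefSeq promoters of GRCm38.p6, running from 250 bases before to 50 bases after a transcription start, were at hand for 26 of the 31 genes, as 32 promoters. The E-box CACGTG lay in 12 of these 32 promoters (37.5%), each of a different gene, against 7.15% of all 32851 promoters. TCACGTG lay in 11 of the 32 promoters (34.4%), against 3.77% of all promoters. TCACGTGA lay in 6 (18.8%), against 0.974% of all promoters. A match is a description of the letters and not a bound site or a cause. By gene, 12 of the 26 with a promoter held CACGTG (46.2%). Among the 7 genes lower than in the reference group, all of which had a promoter, 4 held it, and among the 13 with a promoter that were lower than in the Cpt2 group, 7 held it, so no difference from the 26 is read from these counts. These 4 are printed below because they join a match with a call, Lamp1 and Mcoln1 because they hold several matches close to the start, and each stretch runs 5′ to 3′ and ends at or before the start, with the E-box in capitals. The stretches lie at chr13:64370726-64370770 (minus strand) for Ctsl, chr7:142387895-142388077 (minus) for Ctsd, chr2:164833736-164833772 (plus) for Ctsa, chr11:101069996-101070051 (plus) for Naglu, chr8:13159075-13159160 (plus) for Lamp1 and chr8:3500423-3500504 (plus) for Mcoln1.
Ctsl: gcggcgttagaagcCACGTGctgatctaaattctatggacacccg
Ctsd: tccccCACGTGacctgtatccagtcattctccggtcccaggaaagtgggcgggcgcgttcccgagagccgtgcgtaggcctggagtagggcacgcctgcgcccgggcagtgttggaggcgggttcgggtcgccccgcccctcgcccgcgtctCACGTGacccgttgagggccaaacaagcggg
Ctsa: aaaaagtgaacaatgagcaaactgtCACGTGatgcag
Naglu: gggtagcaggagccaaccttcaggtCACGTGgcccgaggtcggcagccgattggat
Lamp1: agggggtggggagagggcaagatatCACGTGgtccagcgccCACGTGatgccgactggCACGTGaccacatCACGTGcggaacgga
Mcoln1: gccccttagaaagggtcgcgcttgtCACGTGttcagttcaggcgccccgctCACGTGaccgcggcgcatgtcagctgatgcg
The match of Ctsl began 236 bases before the start, and those of Ctsd 245 and 98 bases before it. In Ctsa a match began 12 bases before the start, and a further one, not printed, began after it. Naglu had its match 73 bases before the start. Lamp1 had 4 matches between 61 and 15 bases before the start, and Mcoln1 had 2, at 71 and 45 bases. The 8-base form was present in Ctsa and in 1 of the matches of each of Ctsd and Mcoln1, while Ctsl, Naglu and Lamp1 held shorter forms only.

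**Figure D1:**
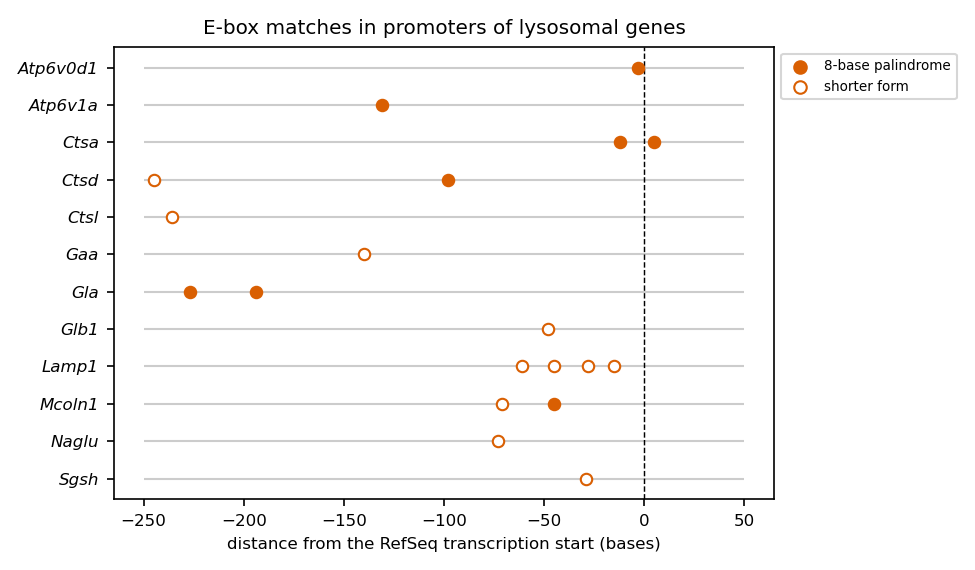
Positions of CACGTG in the promoters of the 12 lysosomal genes that hold it, in bases from the RefSeq transcription start (x axis, 0 at the start), 1 row per gene. Filled points are matches that extend to the 8-base palindrome and open points hold shorter forms. Lamp1 has 4 points and Ctsd, Ctsa, Gla and Mcoln1 have 2 each.

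The level of the 31 genes together was 1043 ± 119 FPKM (SD, n = 4), made of 1218 FPKM in liver 1, 955 in liver 2, 1007 in liver 3 and 990 in liver 4. Liver 1 stood above the other 3. Cathepsins and other peptidases gave the largest share of this level, 375 ± 34.7 FPKM, before the structural membrane proteins with 249 ± 51.0 and sphingolipid breakdown with 209 ± 31.2 (SD, n = 4 each). Glycosidases and sulfatases came to 80.5 ± 9.08 FPKM, the proton pump subunits to 64.0 ± 4.91 and sorting and lipid transport to 58.9 ± 7.97 (SD, n = 4 each). Levels of single genes ran from 0.828 ± 0.147 FPKM for Gla, alpha-galactosidase A, to 189 ± 29.1 FPKM for Psap, the precursor of the saposins that present sphingolipids to their hydrolases (SD, n = 4 each).

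Tfeb, the transcription factor, was read at 1.32, 1.45, 1.81 and 1.25 FPKM in livers 1 to 4, a low level that ranks 9696th among all genes. Lamp1, the more abundant of the structural membrane proteins, had 231, 173, 154 and 158 FPKM, and Lamp2 had 91.9, 73.3, 61.6 and 55.2 FPKM. Liver 1 was the highest for both LAMP genes and not for Tfeb. Scarb2, the receptor that carries glucocerebrosidase to the lysosome, averaged 36.1 ± 7.57 FPKM (SD, n = 4). Npc1 and Npc2, which pass cholesterol out of the lysosome, averaged 11.9 ± 2.09 and 10.9 ± 2.63 FPKM (SD, n = 4 each). The calcium channel Mcoln1 averaged 4.28 ± 0.416 FPKM (SD, n = 4).

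Among the peptidases, the carboxypeptidase Ctsz was the most abundant at 86.5, 71.1, 115 and 108 FPKM in livers 1 to 4. The aspartic protease Ctsd had 78.7, 63.3, 76.3 and 71.1 FPKM, and the cysteine protease Ctsl had 67.4, 60.1, 82.2 and 51.5 FPKM. These 3 genes overlapped in range between livers. Ctsb, a further cysteine protease, averaged 62.2 ± 10.7 FPKM, and Ctsh, an aminopeptidase, 40.6 ± 1.28 FPKM (SD, n = 4 each). Ctsa, a carboxypeptidase that also shields beta-galactosidase and the sialidase Neu1, had 26.9, 19.9, 20.4 and 25.7 FPKM. The tripeptidyl peptidase Tpp1 had 22.9, 16.1, 12.4 and 14.2 FPKM. Ctsh was the steadiest of the 30 genes with a mean of at least 1 FPKM (SD of 0.04 on the log2(FPKM + 1) scale) and Tpp1 the most spread (SD of 0.36).

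The glycosidase Gaa, which breaks down lysosomal glycogen, was the most abundant glycan enzyme at 26.9, 19.0, 19.4 and 18.6 FPKM in livers 1 to 4. Hexa, the alpha subunit of beta-hexosaminidase, had 19.6, 16.3, 19.6 and 20.3 FPKM. Naglu, which removes N-acetylglucosamine from heparan sulfate, had 6.44, 5.33, 5.05 and 5.22 FPKM. Liver 1 stood apart for Gaa and Naglu, while Hexa was lowest in liver 2. Gusb, beta-glucuronidase, had 6.34, 4.55, 5.13 and 4.91 FPKM. The alpha-mannosidase Man2b1 averaged 11.7 ± 2.79 FPKM and the sialidase Neu1 10.8 ± 0.911 (SD, n = 4 each). The beta-mannosidase Manba was at 2.82 ± 0.483 FPKM, beta-galactosidase Glb1 at 2.34 ± 0.488 and the heparan sulfatase Sgsh at 1.32 ± 0.288 (SD, n = 4 each).

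Smpd1, the acid sphingomyelinase, had 11.4, 8.89, 9.56 and 10.03 FPKM in livers 1 to 4, and the acid ceramidase Asah1 averaged 9.60 ± 1.43 FPKM (SD, n = 4). Of the proton pump, the membrane sector subunit Atp6v0d1 averaged 40.1 ± 3.42 FPKM and the membrane sector subunit Tcirg1 9.30 ± 1.72 (SD, n = 4 each). The catalytic subunit Atp6v1a averaged 8.96 ± 2.25 FPKM and the regulatory subunit Atp6v1h 5.67 ± 1.08 (SD, n = 4 each). Tcirg1 was lowest in liver 1, where the other 3 subunits were highest.

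**Figure D2:**
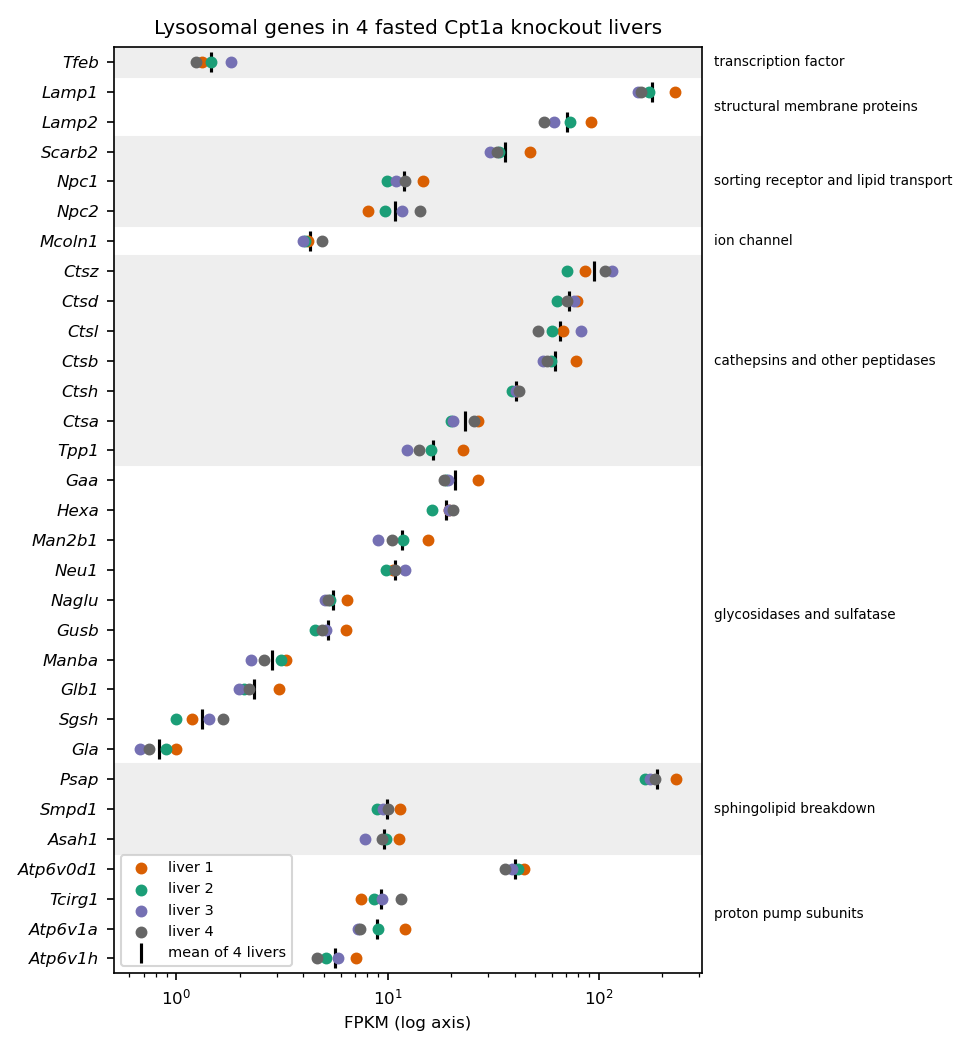
Level of the 31 lysosomal genes in FPKM (x axis, log scale), with 1 point per liver and a bar at the mean of 4 livers, grouped by role. Levels span from Gla at 0.828 FPKM to Psap at 189 FPKM, and liver 1 is the highest point for 21 of the 31 genes.

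Liver 1 was the highest liver for 21 of the 31 genes, against 4 for liver 3, 6 for liver 4 and 0 for liver 2. Among the 10859 genes with a mean of at least 1 FPKM, liver 1 was the highest for 34.2%. The level in liver 1 over the mean of the other livers had a median of 0.31 on the log2 scale over the lysosomal genes and 0.01 over these 10859 genes. For the 10859 genes 1 FPKM was added to both parts of the ratio, which draws low levels towards 0. For the lysosomal genes none was added, so these values and those by length below are not strictly like for like. The ratio moved with the length of the gene model. For the 10 lysosomal genes of at least 6 kb the median was 0.46, against 0.18 for expressed genes of that length. For the 6 lysosomal genes of 1.5 to 3 kb it was 0.25, against −0.13 for expressed genes of that length. Across genes of this library, Spearman's rho of this ratio with length was 0.28 over the 31 genes and 0.42 over the expressed genes, as a description of 1 library whose genes are not independent. The part of gene length or RNA quality in the higher level of liver 1 was not tested. Over the 30 genes with a mean of at least 1 FPKM livers differed by a median SD of 0.21 in log2(FPKM + 1), and over the expressed genes by 0.20. Without liver 1 the median SD of the lysosomal genes was 0.14, and that of the expressed genes was not taken, so the drop is not shown to be particular to lysosomal genes.

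**Figure D3:**
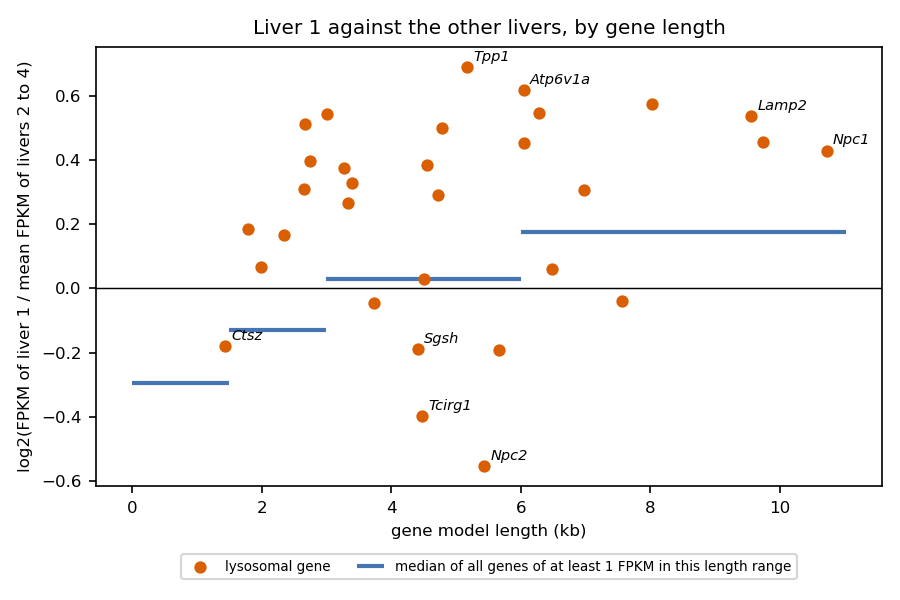
Liver 1 over the mean of livers 2 to 4, as a log2 ratio of FPKM (y axis), against gene model length in kb (x axis), with 1 point per lysosomal gene and bars at the median of all genes of at least 1 FPKM in each length range. For the bars 1 FPKM was added to both parts of the ratio, and for the points none was. Of the 31 points, 24 lie above 0, and Npc2 and Tcirg1 lie lowest.

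The first comparison set the fasted Cpt1a knockout livers against the reference group. In it 22.6% of the 31 lysosomal genes were lower and 0 higher, where 7.6% of about 16862 genes tested were lower and 6.81% higher. The median log2 fold change of the 31 genes was −0.32, against 0.01 over all genes tested. Of the 31 values, 24 were below 0, where 49.5% were over all genes tested. The authors' deposited table lists genes whose unadjusted p was 0.05 or less, which took in 13 of the 31 genes, all with a negative value. Thus 0 were higher at that unadjusted threshold too, where 13.3% of all genes tested were lower and 13.1% higher. For the 18 of the 31 genes that are not listed, a sum over both other deposited tables stands in. Over the listed genes this sum differed from the listed value by at most 0.01.

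Ctsl (ENSMUSG00000021477, chromosome 13, 64359337 to 64370890, minus strand, GRCm38) had a log2 fold change of −2.10 in the authors' deposited table (adjusted p = 4.05e-10). It shares 1742 exon bases with the antisense gene Gm47123 and 395 with Gm49230 on the same strand. Both neighbours had 0 counts in all 4 livers, but how reads in shared bases were counted is not given. Ctsd (chromosome 7, 142375911 to 142388038, minus strand) had −0.48 in the authors' deposited table (adjusted p = 0.0130). Ctsa (chromosome 2, 164832873 to 164841032, plus strand) had −0.49 in the authors' deposited table (adjusted p = 0.0271), and shares 495 exon bases with Pltp on the other strand, whose mean was 9.49 FPKM. The use of strand in counting is not given, so reads of Ctsa and Pltp in these bases cannot be told apart. Ctsz was at −0.45 in the authors' deposited table with an adjusted p of 0.133, and Tpp1, Ctsb and Ctsh, which are not listed, had sums of −0.22, −0.22 and −0.05 from the authors' deposited tables. Of the 7 peptidases, 3 were therefore lower.

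Among the 10 glycosidases and sulfatases 3 were lower. Gusb (chromosome 5, 129989011 to 130003049, minus strand) had a log2 fold change of −1.05 in the authors' deposited table (adjusted p = 1.43e-07). Naglu (chromosome 11, 101070012 to 101077672, plus strand) had −0.95 (adjusted p = 3.8e-06), and Hexa (chromosome 9, 59539540 to 59565109, plus strand) had −0.53 (adjusted p = 0.0132), both in the authors' deposited table. Naglu and Sgsh both act on heparan sulfate, and Sgsh was not listed, with a sum of 0.16 from the authors' deposited tables. Gaa was at −0.51 and Man2b1 at −0.43 in the authors' deposited table, with adjusted p of 0.0915 and 0.125. The unlisted Gla, Glb1, Neu1 and Manba had sums of −0.56, −0.24, −0.17 and 0.25 from the authors' deposited tables.

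Smpd1 (chromosome 7, 105554360 to 105558389, plus strand) had a log2 fold change of −0.73 in the authors' deposited table (adjusted p = 0.000726), while Asah1 and Psap were not listed, with sums of 0.22 and −0.12 from the authors' deposited tables. No membrane protein, sorting protein, channel or pump subunit was called. Lamp1 was at −0.43 and Tcirg1 at −0.39 in the authors' deposited table (adjusted p of 0.114 and 0.187), and Lamp2 had a sum of −0.28 from the authors' deposited tables. Tfeb had a log2 fold change of −0.54 there, with an adjusted p of 0.154 in the authors' deposited table. The unlisted Npc1, Npc2, Scarb2 and Mcoln1 had sums of −0.44, 0.28, 0.21 and −0.32, and Atp6v0d1, Atp6v1a and Atp6v1h of 0.09, 0.03 and −0.30, from the authors' deposited tables.

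**Figure D4:**
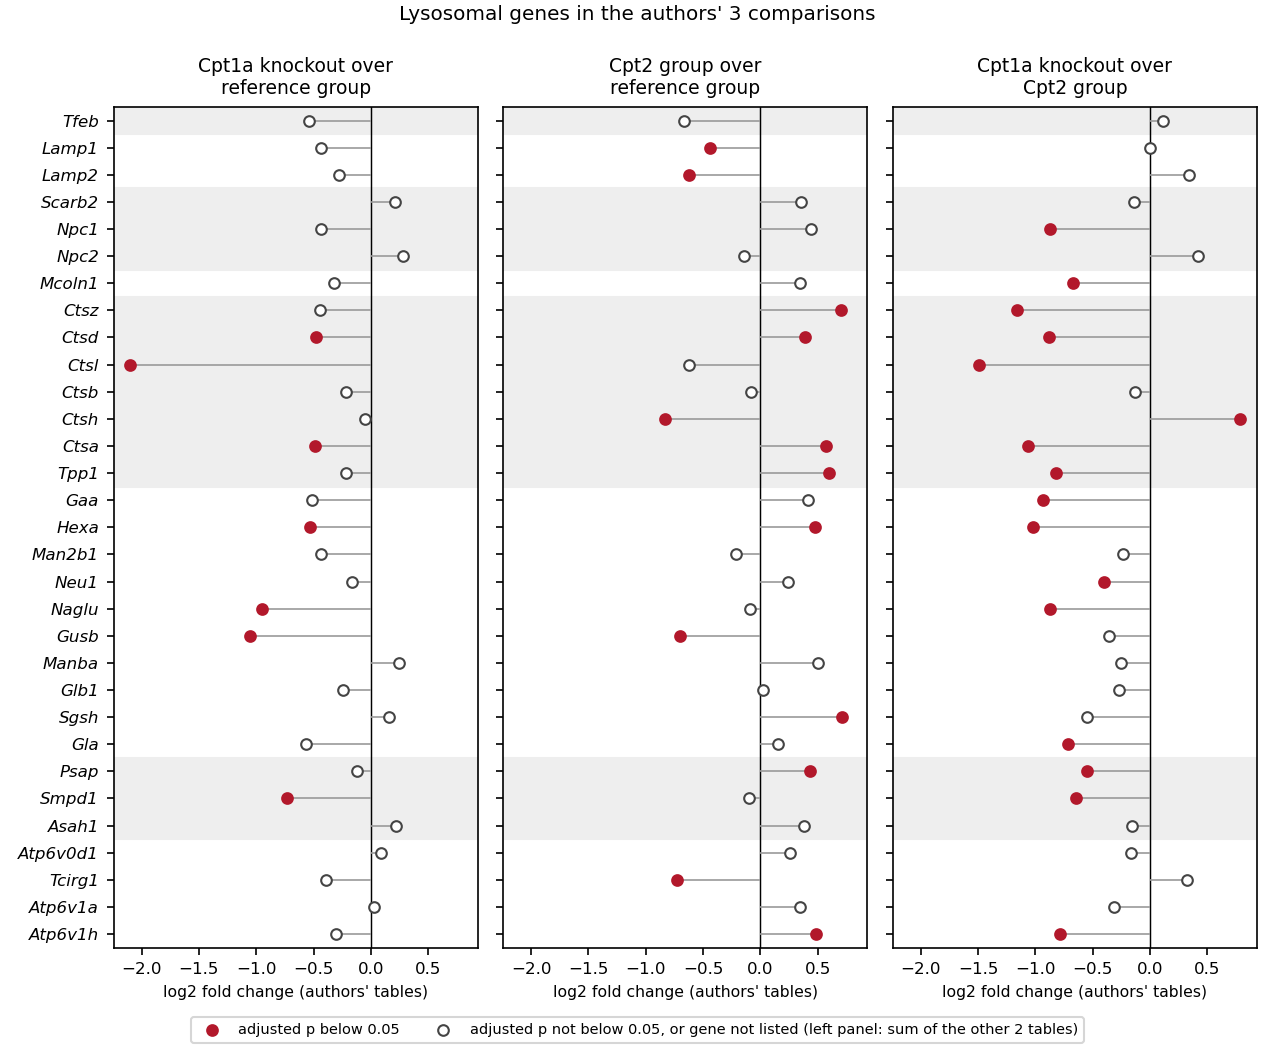
Log2 fold changes of the 31 lysosomal genes (x axis) in the authors' 3 comparisons, grouped by role as in the plot of levels, with filled points where the adjusted p was below 0.05. In the left panel all 7 filled points lie below 0, from Ctsl at −2.10 to Ctsd at −0.48, and genes absent from that table are drawn from the sum of the other 2 tables.

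Cpt2 acts after Cpt1a in the same carnitine shuttle, at the inner mitochondrial membrane. Against the same reference group, the Cpt2 group had 8 of the 31 genes higher (25.8%), where 10.3% of 17475 genes tested were higher, and 5 lower (16.1%), where 10.7% were lower. The median over the 31 genes was 0.26 on the log2 scale, against −0.03 over all genes tested. The higher genes were led by Ctsa (log2 fold change 0.57, adjusted p = 6.93e-05), Tpp1 (0.60, 0.000321) and Ctsz (0.71, 0.00142) in the authors' deposited table. Psap (0.43), Hexa (0.48), Sgsh (0.71), Ctsd (0.39) and the pump subunit Atp6v1h (0.48) were the other 5 in the authors' deposited table. The lower genes were Ctsh (−0.84, adjusted p = 1.95e-06), Gusb (−0.71, 5.11e-05), Tcirg1 (−0.73, 0.000106), Lamp2 (−0.62, 0.0173) and Lamp1 (−0.44, 0.0279) in the authors' deposited table. Ctsl was at −0.62 in the authors' deposited table with an adjusted p of 0.129, Naglu at −0.09 and Smpd1 at −0.10. Tfeb was at −0.67 there in the authors' deposited table (adjusted p = 0.0510).

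Both comparisons share the reference group, so their values are set side by side and not counted against each other. Ctsa was at −0.49 in the Cpt1a knockout and at 0.57 in the Cpt2 group, Hexa at −0.53 and 0.48, and Ctsd at −0.48 and 0.39, each over the reference group and each called in the authors' deposited tables. Gusb was at −1.05 in the Cpt1a knockout and at −0.71 in the Cpt2 group over the reference group, both called lower in the authors' deposited tables.

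The direct comparison of the Cpt1a knockout with the Cpt2 group gives an adjusted p for these differences. Over the listed genes its log2 fold changes come close to the difference between the values of both other comparisons, so it is not separate support. It called 15 of the 31 genes lower (48.4%), where 14.6% of 17755 genes tested were lower, and 1 higher, where 14.2% were higher. The median of the 31 genes was −0.40 on the log2 scale, against 0.05 over all genes tested. Of the 31 values, 26 were below 0, where 46.6% were over all genes tested. The 6 genes with the smallest adjusted p were Ctsl (log2 fold change −1.49, adjusted p = 1.71e-14), Ctsa (−1.07, 7.35e-12), Hexa (−1.02, 1.06e-11), Ctsh (0.79, 6.93e-10), Ctsd (−0.88, 1.78e-09) and Ctsz (−1.16, 4.16e-08) in the authors' deposited table. Of the peptidases Tpp1 came next at −0.82, so that 5 of the 7 were lower and Ctsh alone was higher. Ctsb was at −0.13 and not called in the authors' deposited table. Among glycosidases Naglu (−0.87), Gaa (−0.94), Gla (−0.72) and Neu1 (−0.40) were lower beside Hexa in the authors' deposited table. Smpd1 (−0.64) and Psap (−0.55) of sphingolipid breakdown, the cholesterol exporter Npc1 (−0.88), the channel Mcoln1 (−0.67) and the pump subunit Atp6v1h (−0.79) were also lower in the authors' deposited table. Lamp1 was at 0.00, Lamp2 at 0.34 and Tfeb at 0.12 in the authors' deposited table, none of them called. Gusb was at −0.36 with an adjusted p of 0.0795 in the authors' deposited table.

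A further 130 genes of the lysosome, in 7 lists, were counted in the same way. Against the reference group, 14 of the 124 tested were lower (11.3%) in the Cpt1a knockout and 5 higher (4.03%). Over all genes tested 7.6% were lower and 6.81% higher. The median log2 fold change of the 124 genes was −0.15, against 0.01 over all genes tested. Of their values, sums for unlisted genes included, 81 were below 0, where 49.5% were over all genes tested. Of the 17 other pump subunits tested, 3 were lower, among them the accessory subunit Atp6ap1 (−0.55, adjusted p = 0.00769) in the authors' deposited table. Atp6v0e2 and Atp6v0a4 were the other 2 in the authors' deposited table, with a mean of 0.103 FPKM for Atp6v0e2 and Atp6v0a4 listed at 0 in all 4 livers. Other proteases were lower in 2 of 11, Ctsf (−0.98) and Cpq (−0.56), in the authors' deposited table. Other glycosidases and sulfatases had 3 lower and 1 higher of 20, with the sulfatase Arsg at 0.90, Hgsnat, of heparan sulfate breakdown, at −0.81 and Gm2a, the ganglioside activator protein, at −0.52 in the authors' deposited table. Other lipases, phosphatases and nucleases had 3 lower and 1 higher of 13, with Lipa, the lysosomal acid lipase, at 0.73 and Plbd2 and Pld3 at −0.72 and −0.68 in the authors' deposited table. Other membrane proteins had 3 lower and 2 higher of 30, with Laptm5 at 0.93, Abcd4 at −1.09 and Slc15a3, a peptide transporter, at 1.01 in the authors' deposited table. In the list of the TFEB family and its mTORC1 control 1 of 20 was called, Tfec at 1.41 in the authors' deposited table, from a mean of 0.748 FPKM in the knockout livers. None of 13 genes of mannose 6-phosphate sorting was called in this comparison, by the authors' deposited table, where unlisted genes have an unadjusted p above 0.05.

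In the Cpt2 group over the reference group 29 of the 124 genes tested were higher (23.4%) and 12 lower (9.68%), where 10.3% of all genes tested were higher and 10.7% lower. Sorting genes were higher in 5 of 13, led by Sort1 (1.35), Gga2 (1.12) and Ap1m1 (0.60), in the authors' deposited table. Other glycosidases and sulfatases were higher in 7 and lower in 2 of 20, led by Gm2a (−1.86), Idua (1.55) and Arsg (1.47), and other pump subunits higher in 4 and lower in 3 of 17, led by Atp6v0e2 (−2.40), Atp6v1e1 (0.63) and Atp6v1b2 (0.62), in the authors' deposited table. Lipa was at 1.66 and Acp5 at −0.53, the 2 called of 13 in their list, in the authors' deposited table. Other proteases had 2 higher and 3 lower of 11, led by Scpep1 (1.21), Ctsc (−1.77) and Cpq (−0.78), in the authors' deposited table. Membrane proteins had 7 higher and 3 lower of 30, led by Cd63 (3.06), Cd68 (2.60) and Slc15a4 (−1.06), in the authors' deposited table. Mtor (1.30), Rragd (1.27) and Flcn (0.74) were the 3 called of 20 genes of the TFEB and mTORC1 list in the authors' deposited table.

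In the Cpt1a knockout over the Cpt2 group 55 of 123 genes tested were lower (44.7%) and 11 higher (8.94%), where 14.6% of all genes tested were lower and 14.2% higher. Other glycosidases and sulfatases were lower in 14 and higher in 3 of 20, led by Gm2a (1.33), Galns (−1.45) and Idua (−1.19), in the authors' deposited table. Sorting genes were lower in 9 of 13, led by Gga2 (−1.31), Sort1 (−1.16) and Ap1m1 (−0.75), and other pump subunits in 8 of 16, led by Atp6v1b2 (−0.93), Atp6v1e1 (−0.73) and Atp6ap1 (−0.68), in the authors' deposited table. Lipases, phosphatases and nucleases were lower in 6 of 13, led by Pld3 (−0.94), Lipa (−0.94) and Plbd1 (−0.43), in the authors' deposited table. Membrane proteins were lower in 10 and higher in 4 of 30, led by Cd63 (−3.65), Cd68 (−2.18) and Cln3 (−1.28), in the authors' deposited table. Cd63 averaged 0.542 FPKM in the Cpt1a knockout livers, from 9, 32, 35 and 48 counts in livers 1 to 4. The TFEB and mTORC1 list had 5 lower and 1 higher of 20, led by Mtor (−1.39), Tfec (2.10) and Tfe3 (−0.59), in the authors' deposited table. Other proteases split into 3 higher and 3 lower of 11, led by Ctsc (1.80), Dpp7 (−1.03) and Scpep1 (−0.89), in the authors' deposited table.

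**Figure D5:**
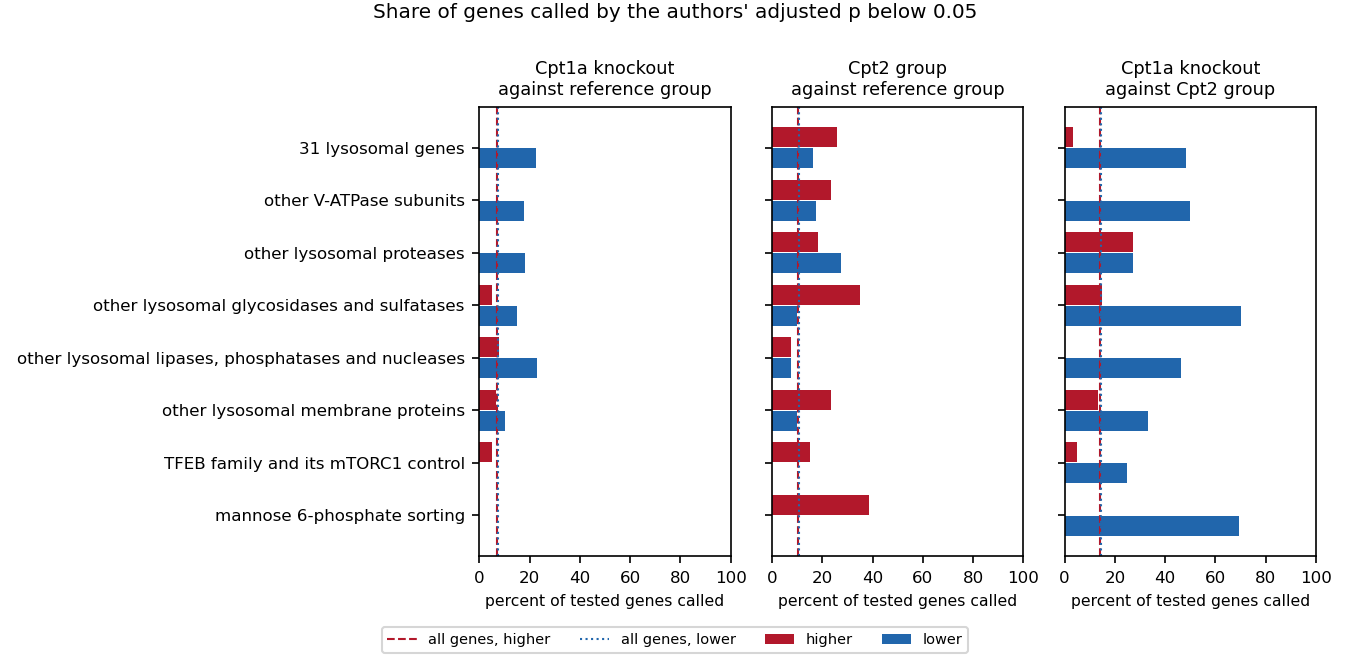
Percent of tested genes called higher (red) and lower (blue) by the authors' adjusted p below 0.05 (x axis), for the 31 lysosomal genes and 7 other lists of the pathway (y axis), with lines at the percent over all genes. In the right panel the blue bar of the 31 genes reaches 48.4% beside a line at 14.6%.

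Lysosomal genes are read in every cell type of the liver, and Kupffer cells are rich in them. In whole liver RNA, fewer cells of a type and less RNA per cell cannot be told apart. The counts of called markers that follow are from the authors' deposited tables, and stand beside shares over all genes of 6.81% higher and 7.6% lower for the Cpt1a knockout over the reference group. For the Cpt2 group over the reference group these shares are 10.3% higher and 10.7% lower, and for the Cpt1a knockout over the Cpt2 group 14.2% higher and 14.6% lower. Kupffer cell and macrophage markers were higher in 4 and lower in 1 of 16 in the Cpt1a knockout over the reference group, higher in 1 and lower in 4 in the Cpt2 group over the reference group, and higher in 13 and lower in 1 in the Cpt1a knockout over the Cpt2 group. Cd68 was the marker higher in the Cpt2 group over the reference group and the marker lower in the last of these. It also stands in the list of lysosomal membrane proteins. The summed level of the Kupffer cell and macrophage markers was 255 to 279 FPKM in the 4 knockout livers, and none was at 0. Hepatocyte markers were lower in 8 and higher in 0 of 12 in the Cpt1a knockout over the reference group, the same numbers in the Cpt2 group over the reference group, and lower in 2 and higher in 1 in the Cpt1a knockout over the Cpt2 group, with a summed level of 26036 to 35983 FPKM. In the Cpt1a knockout over the reference group, endothelial markers had 1 higher of 10, stellate cell markers 2 of 10, lymphocyte markers 3 of 8, neutrophil markers 1 of 4 and bile duct markers 0 of 5, with none lower. In the Cpt2 group over the reference group, 1 of 10 endothelial and 1 of 5 bile duct markers were lower, and no stellate cell, lymphocyte or neutrophil marker was called. In the Cpt1a knockout over the Cpt2 group, endothelial markers had 4 higher of 10, lymphocyte markers 4 of 8, neutrophil markers 1 of 4 and bile duct markers 1 of 5, and stellate cell markers had 2 higher and 3 lower of 10. Summed levels in the 4 livers were 68.3 to 74.4 FPKM for endothelial, 98.9 to 104 for stellate cell, 3.76 to 5.46 for lymphocyte, 3.06 to 4.62 for neutrophil and 8.53 to 12.4 for bile duct markers, and the neutrophil marker Ly6g was at 0 in 3 of them. The part of these cell types in the calls of lysosomal genes was not tested.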

How the data were processed

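RNA-seq of 4 whole-liver libraries from mice with a liver-specific Cpt1a knockout, fasted for 24 h, was analysed. Per the submitters' processing notes, HISAT2 was used with the GRCm38 (mm10) build. How reads were counted, on which annotation, with or without strand, and which test gave the fold changes is not given in the sources used here. Raw counts per gene and FPKM values, with a gene model length, were deposited by the authors. A further 8 per-sample columns match no sample here and were not used. Per the file headers, the authors' 3 comparison tables give each gene's log2 fold change, p-value and adjusted p-value. Whether each library is a separate mouse is not stated, so an SD may measure technical spread. Pairs of livers differed over the 31 genes by a chi-square per gene of 31.1 to 99.7, more than counting error.

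With 1 group in the series, no fit between groups could be made, and calls are the authors' adjusted p below 0.05 with the sign of the log2 fold change. The table that sets Cpt1a knockout livers against the reference group is partial. It lists 4461 genes with p up to 0.05, and its adjusted values match an adjustment over 16862 genes. The sum of the other 2 tables stood in for unlisted genes. Member genes, lists and the naming rule were chosen with earlier results of these data known. The rule named every called member against the reference group, the 6 members with the smallest adjusted p in each other comparison, the 3 called genes with the smallest adjusted p per list, and Cpt1a and Cpt2. Other members are given for completeness. Spread was taken on log2(FPKM + 1) over genes with a mean of at least 1 FPKM. Promoters came from RefSeq (GRCm38.p6), and exon overlaps from GENCODE M21. Alternatives covered the threshold, a minimum change, a mean count of at least 10, centring, the pseudocount, TMM scaling in edgeR 4.0.16 (R 4.3.3) and leaving out each liver. Other steps used Python 3.11.15, pandas 2.3.3 and numpy 2.4.6, and were tested on simulated data.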

Additional observations from a re-analysis of the deposited data

Results flagged for a closer look

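Gaa, the acid alpha-glucosidase, read 26.9 FPKM in liver 1, against 19.0, 19.4 and 18.6 FPKM in livers 2, 3 and 4, so that liver 1 lay far from the others. The gap took up more of the range than Dixon's critical value for 4 samples allows. Chance alone flags about 1 in 20 separate groups, and 1 of 40 gene and sum profiles was flagged here. The profiles share the same livers and the sums hold the same genes, so they are not separate groups and these rates are not compared. Liver 1 was the highest liver for 21 of the 31 genes.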

How the results depend on the processing

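No paired analysis was possible because the series holds 1 group of samples. Of the summary values compared under other settings, 43 kept their direction and size class and 12 moved, and none reversed. At an adjusted p below 0.01, the Cpt1a knockout had 4 of the 31 genes lower than the reference group, and the Cpt2 group had 5 higher and 3 lower. With a change of at least 1 on the log2 scale also required, 2 genes were lower in the Cpt1a knockout than in the reference group, 0 higher and 0 lower in the Cpt2 group, and 4 lower and 0 higher in the Cpt1a knockout over the Cpt2 group. At an unadjusted p up to 0.05, 13 genes were lower in the Cpt1a knockout than in the reference group, where 13.3% of all genes were, and 3 were higher than in the Cpt2 group. At an adjusted p below 0.1, 2 were higher than in the Cpt2 group. Apart from unadjusted p in the Cpt1a knockout over the reference group, shares over all genes were not taken at these settings. The counts therefore show only how the calls move with the threshold. No gene of the 31 was higher in the Cpt1a knockout than in the reference group at any of these settings, an unadjusted p up to 0.05 included. At that unadjusted p, 13.1% of all genes were higher. Leaving out each liver in turn gave a median SD between livers of 0.136 to 0.228, the lowest without liver 1, and a summed level of 984 to 1072 FPKM. An alternative chosen after seeing the data left out the 5 genes that share exon bases with a neighbour of at least 1 FPKM, which can only take their calls away. Of the other 26 genes, 6 were lower in the Cpt1a knockout than in the reference group, 6 higher and 4 lower in the Cpt2 group than in the reference group, and 12 lower and 1 higher in the Cpt1a knockout than in the Cpt2 group. Precision for single genes is limited by 4 livers and, against other groups, by the use of the fold changes and p-values of the authors alone.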

Other observations

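Of the 31 genes, 11 share exon bases with another annotated gene, and for 5 of them a neighbour had a mean of at least 1 FPKM. Ctsa had Neurl2 (324 bases, 1.73 FPKM for Neurl2) as well as Pltp, and the others were Lamp1 with Grtp1 (249 bases, 5.58 FPKM for Grtp1), Ctsb with Fdft1, squalene synthase (774 bases, 16.2 FPKM for Fdft1), Ctsz with Nelfcd (10 bases, 9.73 FPKM for Nelfcd) and Npc1 with Rmc1 (511 bases, 3.67 FPKM for Rmc1). These 6 neighbours lie on the other strand. Overlaps on the same strand, with neighbours below 1 FPKM, were Ctsd with Gm49369 (808 bases, 0 FPKM for Gm49369) and Ctsl with Gm49230 (395 bases, 0 FPKM for Gm49230). Glb1 shared 165 bases with Tmppe on the same strand (0.896 FPKM for Tmppe).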
